A study of Schizosaccharomyces pombe with 30 samples.

Results

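The H3K9me2 profile of Δprw1, a deletion of a structural subunit of Clr6 complexes, was compared with that of clr6-1, a partial-function allele of the catalytic subunit. Both were fission yeast (S. pombe) strains built on the same parent, MAT ΔREIII, whose mating type locus carries fluorescent reporters and small deletions of the Atf1/Pcr1 sites that inactivate the nucleation element REIII. The comparison took the 3 Δprw1 libraries (prw1::kanMX, replicates A, B and C) and the 2 clr6-1 libraries (replicates A and B), 5 of the 30 samples of the series, in all 1500 filtered windows of 300bp. Every strain, including the parent called wild-type here (replicates B and C), was grown in YES medium at 32 °C for 8 h before fixation, and clr6 is essential, so its allele is hypomorphic rather than null. Another clr6-1 library had been removed by the authors as an outlier. The question was whether losing a subunit of the complex and impairing its deacetylase leave the same H3K9me2 behind.

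Clr6 is a class I histone deacetylase that removes acetyl groups from histone tails, and Prw1 is a WD-repeat protein shared by its complexes. H3K9me2, written by the methyltransferase Clr4, marks heterochromatin. It is nucleated at defined sequences, such as the dg and dh repeats of the pericentromeres and the tlh genes of the subtelomeres, and then spreads along the chromosome from nucleosome to nucleosome. Deacetylation of histones favours the methylated state, and small facultative islands form over meiotic genes such as mei4 and ssm4.

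Windows at the subtelomeres and the mating type locus (MAT) carried most of the differences, and their sequences decide how each count can be read. The lowest window by log2 fold change, I:11701-12000, is given first. It lies 6 kb inward from tlh1 on the left arm of chromosome I. It has 2 further copies without any base change, II:4520549-4520848 and I:5575722-5576021, both on the minus strand. The second is the lowest window with a single copy on that arm, I:12601-12900, within SPAC212.08C. The third, II:2134501-2134800, is the lowest at MAT on chromosome II and has no second copy on the chromosomes. All are on the plus strand of RefSeq assembly ASM294v3, whose chromosome lengths equal the last bin ends of the deposited tables. No capitals are used in these 3.
lowest subtelomeric window, I:11701-12000: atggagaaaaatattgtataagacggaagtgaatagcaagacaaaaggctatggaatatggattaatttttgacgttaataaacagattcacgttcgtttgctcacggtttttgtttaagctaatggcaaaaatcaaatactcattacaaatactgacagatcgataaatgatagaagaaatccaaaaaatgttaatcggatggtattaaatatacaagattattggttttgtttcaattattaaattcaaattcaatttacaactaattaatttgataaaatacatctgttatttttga
lowest single-copy subtelomeric window, I:12601-12900: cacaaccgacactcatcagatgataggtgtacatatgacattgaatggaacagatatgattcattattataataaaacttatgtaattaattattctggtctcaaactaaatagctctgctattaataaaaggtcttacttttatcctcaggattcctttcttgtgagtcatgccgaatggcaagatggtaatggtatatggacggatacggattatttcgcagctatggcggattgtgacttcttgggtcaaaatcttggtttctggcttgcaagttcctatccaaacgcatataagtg
lowest MAT window, II:2134501-2134800: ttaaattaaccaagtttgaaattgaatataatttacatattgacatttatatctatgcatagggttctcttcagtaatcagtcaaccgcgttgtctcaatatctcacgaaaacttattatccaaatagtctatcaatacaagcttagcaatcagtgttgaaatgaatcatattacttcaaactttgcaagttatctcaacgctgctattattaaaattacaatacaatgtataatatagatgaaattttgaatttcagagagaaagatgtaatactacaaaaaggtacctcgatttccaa
A second copy was counted where at least 150 bases matched elsewhere at 90% identity or more, and 1114 of the 1500 windows had one. The authors' alignment kept reads with several matches, so at such windows reads of the copies cannot be told apart. The mating type contig of the tables was not searched, as its sequence was not used here, so whether a MAT window has a copy on that contig was not tested.

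Depth was 6619424 to 10860203 fragments per library in the 5kb bins. The windows held 68.4% and 70.3% of these fragments in clr6-1, but 33.1%, 64.5% and 37.4% in Δprw1 replicates A, B and C, so replicate B stood apart from the other Δprw1 libraries. The part of this difference in the results below was not tested. Counts were scaled on the 5kb bins, where the 2352 bins without a window had a median log2 fold change of 0.0023. Background per window, the median 5kb bin carried over to 300bp, came to between 105.3 and 105.6 normalized counts in the 5 libraries, and levels are given below as multiples of it. The 5kb bin that holds prw1 (I from 5110278 to 5111882) was at 0.336 to 0.346 times the median bin in Δprw1 and 0.289 and 0.312 times in clr6-1. It cannot check the labels, because the authors blanked the region around prw1 in every library.

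H3K9me2 was lower in Δprw1 than in clr6-1 wherever a difference was called. Of the 1500 windows, 161 (10.7%) passed as lower in Δprw1 at an adjusted p below 0.005 and a log2 fold change below -1 in edgeR's quasi-likelihood test with Benjamini-Hochberg adjustment. None passed as higher (0%), with 0 at an unadjusted p below 0.05 and 0 in DESeq2, which called 181 lower. The median log2 fold change of all windows was -0.96. All Δprw1 libraries lay below both clr6-1 libraries in 952 windows (63.5%) and above both in 7. The number called rested on every library: it was 78 without Δprw1 replicate A, 627 without replicate B, 93 without replicate C, 98 without clr6-1 replicate A and 105 without clr6-1 replicate B, with none higher in these fits. The direction rested on the scaling outside heterochromatin. Size factors computed by TMM on the windows themselves moved the median to 0.46 and gave 106 windows lower and 163 higher, of which 91 lay at pericentromeres, 33 in the arms, 20 at subtelomeres, 17 at islands and 2 at the ends of chromosome III. The 104 windows called lower under both scalings lay at subtelomeres and MAT.

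**Figure D1:**
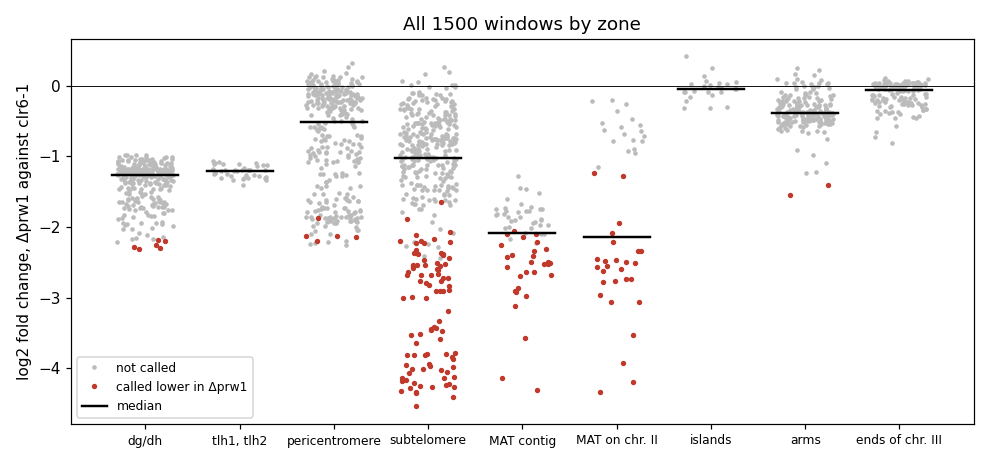
Log2 fold change of Δprw1 against clr6-1 in each of the 1500 windows (points, spread sideways for display), by zone, with the median of the zone as a line. Called windows (161) are concentrated at subtelomeres and MAT, while the 25 island windows centre on -0.05.

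The calls were unequally spread over the zones. They took 92 of 391 subtelomeric windows outside tlh1 and tlh2 (23.5%), 29 of 65 windows of the MAT contig (44.6%) and 27 of 46 windows of MAT on chromosome II (58.7%). They took 6 of 284 dg and dh windows (2.11%), 5 of 324 other pericentromeric windows (1.54%) and 2 of 195 arm windows (1.03%). None was called among 39 windows of tlh1 and tlh2, 25 of the islands and 131 at the ends of chromosome III, where 1, 0 and 1 were lower at an unadjusted p below 0.05 and DESeq2 called none. Among the 321 chromosomal windows without a second copy 23 were called (DESeq2 19), in 12 without Δprw1 replicate A, without replicate C or without clr6-1 replicate A, 15 without clr6-1 replicate B and 34 without Δprw1 replicate B. Of these 23 calls, 9 lay at MAT on chromosome II, where copies on the MAT contig were not searched for. Among the 1114 with a second copy 109 were called.

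**Figure D2:**
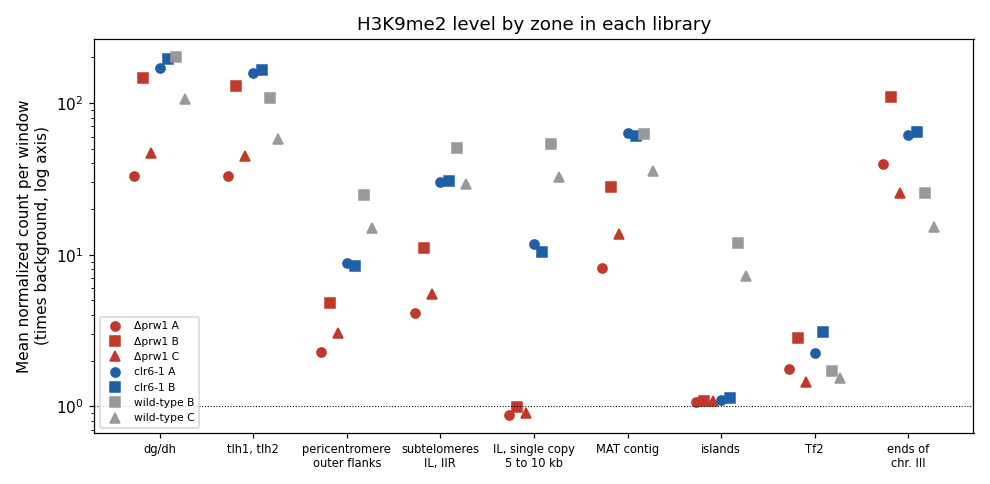
Mean normalized count per window as a multiple of background (log axis) for each zone, one point per library. Δprw1 is in red, clr6-1 in blue and wild-type in grey, and the dotted line is background. At single-copy windows 5 to 10 kb from tlh1 the Δprw1 libraries sit at 0.877 to 0.992 times background and clr6-1 at 10.5 and 11.7 times.

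At the nucleation sites, both clr6-1 libraries held high levels, and the Δprw1 libraries lay below them by unequal amounts. Over the dg and dh repeats, whose transcripts feed the RNA interference machinery, the mean level was 171 and 194 times background in clr6-1. It was 32.8, 146 and 46.5 times background in Δprw1 replicates A, B and C, so replicate B came near clr6-1 and the others were far below it. Wild-type replicates B and C were at 201 and 106 times, so Δprw1 replicate B lay between them. At tlh1 and tlh2, which encode RecQ-type helicases and share dh-like sequence, the levels were 157 and 165 times in clr6-1 against 33.1, 129 and 45.0 times in Δprw1. Both wild-type libraries, at 107 and 57.7 times, lay below Δprw1 replicate B there. Summed over all 323 nucleation windows, the log2 level was 20.97 ± 1.11 (SD, n = 3) for the Δprw1 libraries and 22.54 ± 0.12 (SD, n = 2) for clr6-1. The libraries did not overlap, and the difference of -1.57 compares with the SD of 1.11 in Δprw1 (2-sided exact permutation test, p = 0.2, where 3 libraries against 2 allow no p below 0.1). For replicate B alone the difference was -0.32, and without it -2.20. Scaling by total counts gave -0.78. The count called in dg and dh went from 6 to 282 of 284, and at tlh1 and tlh2 from 0 to 36 of 39, when replicate B was left out. The other omissions gave 3 to 5 dg and dh windows and 0 at the tlh genes. Against wild-type, the median log2 fold change over dg and dh was -1.04 in Δprw1 and 0.23 in clr6-1, and over tlh1 and tlh2 -0.20 and 1.01, the wild-type libraries being shared by both.

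The lowest dg or dh window, II from 1613101 to 1613400, had 260, 616 and 475 normalized counts in Δprw1 against 2331 and 2134 in clr6-1. Its log2 fold change was -2.31 (SE 0.53, adjusted p = 0.000213 by edgeR). That window has 5 further copies in the reference, and the call was lost without Δprw1 replicate A and without clr6-1 replicate A. The dg and dh transcripts with most called windows were SPNCRNA.5258 (median log2 fold change -2.24 over 4 windows), SPNCRNA.364 (-2.22 over 5) and SPNCRNA.7204 (-2.14 over 2), with 1 window called in each.

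Beside tlh1 and tlh2, H3K9me2 reached less far into the chromosome in Δprw1 than in clr6-1. In clr6-1 the level in the first 2.5 kb was nearly that of tlh1 itself, with a median of 17193 and 17486 normalized counts per window, and in Δprw1 it was 1944, 6938 and 3150. From 2.5 to 5 kb the medians were 11071 and 11870 in clr6-1 and 514, 1673 and 687 in Δprw1, which is 63.8% and 66.7% of the library's own tlh1 level in clr6-1 but 14.6%, 12.0% and 14.4% in Δprw1. The percentages need no scaling between libraries, and at this distance replicate B fell in with A and C. From 5 to 10 kb clr6-1 retained 8.20% and 7.38% of its tlh1 level, and Δprw1 replicates A, B and C 3.19%, 0.99% and 2.26%. The Δprw1 medians there, of 113, 138 and 108 counts, were 1.07, 1.31 and 1.02 times background. Those Δprw1 percentages therefore set near-background counts against unequal tlh1 levels. The same order held inward of tlh2, with 70.3% and 68.5% in clr6-1 against 15.5%, 13.1% and 15.5% in Δprw1 from 2.5 to 5 kb.

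**Figure D3:**
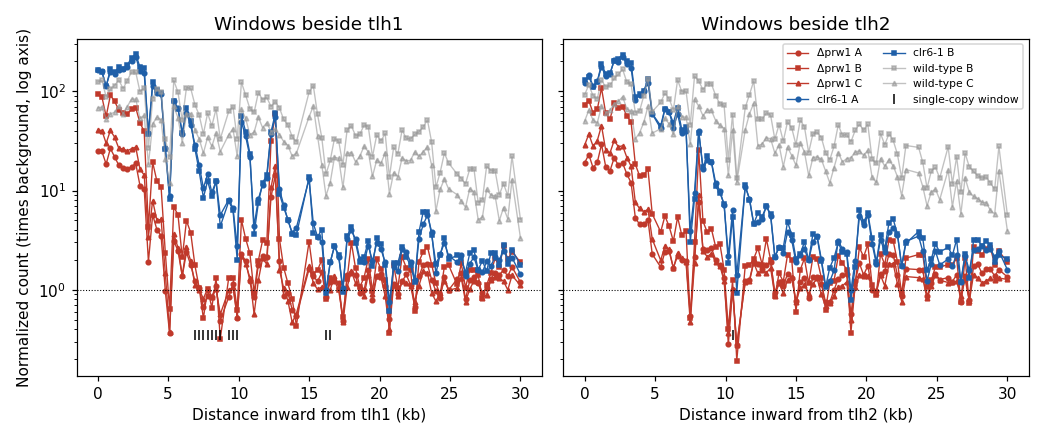
Normalized count of each window as a multiple of background (log axis) against its distance inward from tlh1 (left) and tlh2 (right), one line per library. The short vertical marks at the bottom are windows without a second copy. The Δprw1 lines (red) drop within 5 kb of either gene, and the clr6-1 lines (blue) drop later, while the wild-type lines (grey) have medians of 43.8 and 24.1 times background from 10 to 20 kb.

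The distance at which a library fell below 0.5 of its own tlh level, for 3 windows in a row, was 1.5 to 3 kb from tlh1 in Δprw1 and 4.8 kb in both clr6-1 libraries. From tlh2 it was 3 kb in all 3 Δprw1 libraries and 4.8 kb in both clr6-1 libraries. In wild-type the level stayed above 0.5 for 13.2 to 14.1 kb. With 0.25 as the threshold, the distances were 3.6 kb in every Δprw1 library at both genes, and 6.9 to 7.5 kb in clr6-1. Subtracting background first left the means of both genotypes as they were under both thresholds. The differences of -2.3 and -1.8 kb at 0.5 had p = 0.1 each (2-sided exact permutation test, n = 3 and 2), the smallest possible, and 0.183 after Benjamini-Hochberg adjustment over 11 such level and distance tests. Windows step by 0.3 kb, and the arms share sequence, so the genes are not independent examples.

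Between 2.5 and 10 kb from the tlh genes, 46 of 48 windows were called lower in Δprw1 (24 of 24 beside tlh1 and 22 of 24 beside tlh2). The number was 32 without Δprw1 replicate A, 48 without replicate B, 33 without replicate C or without clr6-1 replicate A, and 34 without clr6-1 replicate B. The median log2 fold change was -1.72 within 2.5 kb, -3.44 from 2.5 to 5 kb, -3.81 from 5 to 10 kb, -1.22 from 10 to 20 kb and -0.61 beyond, where 0 of 85 windows were called. Beyond 20 kb both mutants were close to background, with medians of 1.22 to 1.80 times in Δprw1 and 1.89 and 2.17 times in clr6-1 against 14.0 and 8.71 times in wild-type, so the fold change there compares low levels in both. Against wild-type, the medians from 5 to 10 kb were -5.01 in Δprw1 and -1.55 in clr6-1.

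Most of these windows have copies on other arms. The 10 windows without one, from 12601 to 15900 on chromosome I and 6.9 to 9.9 kb from tlh1, were read without that limit. Every one of them was called lower in Δprw1, with log2 fold changes from -4.34 nearest tlh1 to -2.08 farthest from it. The Δprw1 libraries were at 0.877, 0.992 and 0.900 times background, replicate B included. The clr6-1 libraries were at 11.7 and 10.5 times and wild-type at 53.7 and 32.3 times. The log2 sum differed by -3.58 between 9.93 ± 0.09 (SD, n = 3) and 13.51 ± 0.12 (SD, n = 2), with p = 0.1 in the exact permutation test, the smallest possible. The call held in 8 windows without Δprw1 replicate A, without replicate C or without clr6-1 replicate A, in 9 without clr6-1 replicate B, and in 10 without Δprw1 replicate B and in DESeq2. The window printed above, I:12601-12900, had 129, 186 and 118 normalized counts in Δprw1 against 3048 and 2769 in clr6-1 (log2 fold change -4.34, SE 0.65, adjusted p = 2.29e-09 by edgeR). The groups were far apart and the nearest libraries differed by more than the spread within either. Single-copy windows elsewhere in the subtelomeres were seldom called. Outside the tlh genes, 11 of 48 subtelomeric windows without a second copy were called, with a median log2 fold change of -0.99. These were 10 of 12 on the left arm of chromosome I and 1 of 14 on the right arm of chromosome II. On the right arm of chromosome I it was 0 of 22, so all 27 calls there lie in copied sequence.

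By arm, 38 of 115 windows of the left arm of chromosome I outside tlh1 were called, 27 of 120 of the right arm of chromosome II outside tlh2 and 27 of 87 of the right arm of chromosome I. Left-out libraries gave 25 to 46, 16 to 41 and 16 to 30 of these, lowest without Δprw1 replicate A in each case, tied with 1 other library, and highest without Δprw1 replicate B. On the left arm of chromosome II, where every window has a second copy, 0 of 69 were called, with 20 lower at an unadjusted p below 0.05, none in DESeq2 and a median log2 fold change of -0.75. Fits of only the 5 libraries called 13 lower in edgeR and 18 in DESeq2. Levels there were low in both mutants, at 1.33, 1.79 and 1.15 times background in Δprw1 and 2.3 and 2.5 times in clr6-1. Wild-type was at 21.5 and 12.4 times. The 3 lowest windows of the whole table lie one on each of the other arms, and the second and the third overlap the copies of the first sequence above in part. On chromosome I from 11701 to 12000 it had 145, 224 and 147 normalized counts in Δprw1 against 3931 and 4032 in clr6-1, a log2 fold change of -4.54 (SE 0.64, adjusted p = 3.15e-10 by edgeR). On chromosome II from 4520401 to 4520700 the change was -4.41 and on chromosome I from 5575801 to 5576100 -4.35. All 3 kept their call whichever library was left out, but they share sequence and are not independent.

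Among the subtelomeric genes with called windows, most windows have second copies, so their counts also hold reads of the copies. This was so for every window of SPAC750.06C, SPAC750.07C, SPAC750.08C and SPAC212.06C. SPAC212.08C, annotated as a GPI-anchored protein, had all 4 of its windows called, with a mean of 170, 305 and 179 normalized counts per window in Δprw1 against 4036 and 4205 in clr6-1. SPAC212.12, also annotated as GPI-anchored, had 3 of 3 called (median log2 fold change -3.98), as did its antisense transcript prl101 with 5 of 5 (-2.91). On the right arm of chromosome I, SPAC750.07C, an uncharacterized gene, had 3 of 3 called (-4.14) and SPAC750.08C, annotated as an NAD-dependent malic enzyme, 3 of 3 (-2.84). In the windows of SPAC750.08C clr6-1 had 12365 and 13354 normalized counts and wild-type 8186 and 4414, where Δprw1 had 846, 3425 and 1206. SPAC212.06C, annotated as helicase-like, had 2 of 4 windows called, and SPAC750.06C 1 of 4. Among noncoding RNAs, SPNCRNA.4507 had 7 of 7 windows called (-2.68) and SPNCRNA.6640 6 of 7 (-2.37). Apart from prl101 and both SPNCRNA entries, which the naming rule chose, these genes are named as the coding genes with a called window, a list of 10 among 139 made after their values were seen.

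At MAT, which in this strain carries the reporters, Δprw1 lay below clr6-1 in all 65 contig windows, with a median log2 fold change of -2.09. That order of the libraries also held in 952 of all 1500 windows (63.5%) and in all 39 of tlh1 and tlh2, so it is not particular to MAT. The mean level was 63.4 and 60.7 times background in clr6-1 and 8.16, 28.0 and 13.6 times in Δprw1, and wild-type was at 62.6 and 35.6 times. The log2 sums were 16.61 ± 0.90 (SD, n = 3) and 18.69 ± 0.04 (SD, n = 2), a difference of -2.08 (2-sided exact permutation test, p = 0.2; -2.55 without Δprw1 replicate B). Of the 65 windows 29 were called, and 9, 65, 16, 17 and 19 without Δprw1 A, B and C and clr6-1 A and B in turn. The locations of the reporters and of cenH, the nucleation element of the locus, on the contig were not used here, so it is described by distance from its first base.

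**Figure D4:**
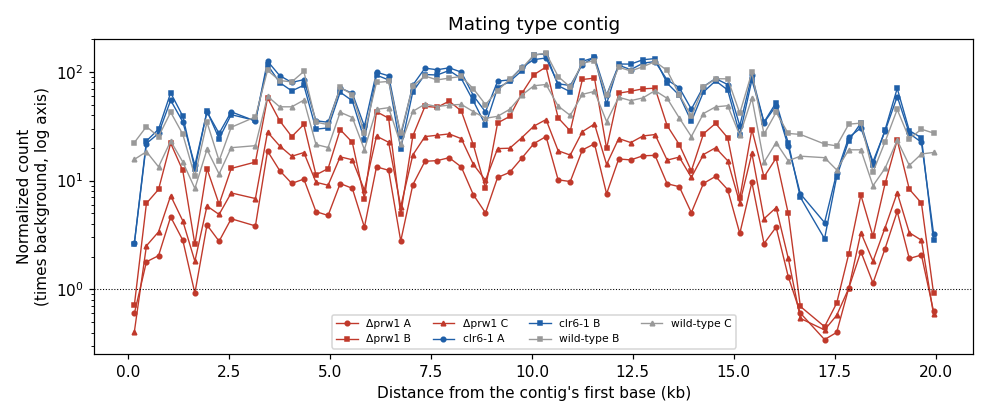
Normalized count as a multiple of background (log axis) along the mating type contig, one line per library. All Δprw1 lines (red) run below the clr6-1 lines (blue), and at the window from 17401 to 17700 they are at 42.3 to 78.5 normalized counts, below background, where clr6-1 is at 1142 and 1235.

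The last 5 kb of the contig differed more than the rest. There 15 of 16 windows were called, with a median of -2.66, while the stretches of 5 kb preceding it had 10 of 16, 3 of 17 and 1 of 16 called and medians of -2.27, -1.84 and -1.85. Relative to the first 15 kb of the same library, the last 5 kb was at -3.70 ± 0.03 (log2, SD, n = 3) for the Δprw1 libraries and -2.94 ± 0.06 (SD, n = 2) for clr6-1. This ratio needs no scaling between libraries, the genotypes did not overlap, and the difference of -0.76 was -0.75 for replicate B alone (exact permutation test, p = 0.1, the smallest possible, and 0.183 after adjustment over the 11 tests). The lowest contig window, from 17401 to 17700, had 42.3, 78.5 and 60.7 normalized counts in Δprw1, all below background, and 1235 and 1142 in clr6-1. Its log2 fold change was -4.31 (SE 0.51, adjusted p = 4.03e-14 by edgeR) and held whichever library was left out. The calls in the last part were 7, 16, 10, 11 and 13 when Δprw1 A, B and C and clr6-1 A and B were left out in turn.

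On chromosome II the locus itself, between rpp202 and emc3, had 25 of 26 windows called (24 in DESeq2), with a median of -2.58. The call remained in 9 without Δprw1 replicate A, 13 without replicate C, 16 without clr6-1 replicate A and 17 without clr6-1 replicate B, and in 25 without Δprw1 replicate B. Of these windows 8 have no second copy on the chromosomes, and 7 of the 8 were called. This fell to 4 without Δprw1 replicate A, without replicate C or without clr6-1 replicate A and to 5 without clr6-1 replicate B. The lowest, II from 2134501 to 2134800, printed above, had 70.8, 116 and 77.5 normalized counts in Δprw1 against 1860 and 1687 in clr6-1, with 2807 and 1567 in wild-type. Its log2 fold change was -4.34 (SE 0.55, adjusted p = 1.98e-12 by edgeR), with the call kept in each left-out fit. The silent cassette gene mat3-Mc, which encodes the M-specific HMG-box factor, had 3 of 3 windows called, at 263, 1042 and 418 normalized counts per window in Δprw1 against 3520 and 3674 in clr6-1. Its neighbour mat3-Mi had 2 of 2 called, and the noncoding RNAs SPNCRNA.390 and SPNCRNA.389 had 6 of 6 and 3 of 3. Every window of mat3-Mc, mat3-Mi and SPNCRNA.389, and 5 of 6 of SPNCRNA.390, has a second copy. Their counts therefore also hold reads of the copies.

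Outside the locus the difference was smaller. The 17 windows to its left had a median of -0.77 and 2 calls, both in SPBC23G7.10C, annotated as an NADH-dependent flavin oxidoreductase (0 in DESeq2, and 0 without any 1 library other than Δprw1 replicate B, 3 without that one). The 3 windows to its right had a median of -0.26 and none was called, with 0 also at an unadjusted p below 0.05 and in DESeq2.

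In the pericentromeres outside dg and dh the levels differed but few windows were called. The outer flanks, 208 windows, were at 8.77 and 8.41 times background in clr6-1, 2.29, 4.79 and 3.06 times in Δprw1 and 24.9 and 14.9 times in wild-type. Within 2.5 kb of the outermost repeat the median log2 fold change was -1.56, and it was -0.56 from 2.5 to 5 kb, -0.11 from 5 to 10 kb and -0.05 beyond. Past 5 kb both mutants had medians of 1.17 to 1.42 times background, and wild-type of 3.47 to 6.19 times. The 88 windows inward of the repeats were at 44.6 and 46.3 times in clr6-1 and 7.02, 23.3 and 10.1 times in Δprw1. The 28 windows between repeats had a median of -1.75, with 0 called, 19 lower at an unadjusted p below 0.05 and 4 called by DESeq2. All 5 calls outside dg and dh were in the outer flanks, 3 at centromere II and 2 at centromere III. DESeq2 called 10 windows outside dg and dh, of which 5 lay in the outer flanks, 4 between repeats and 1 inward of them. None of the 5 edgeR calls was kept without Δprw1 replicates A or C or either clr6-1 library, and 30 were called in the flanks without Δprw1 replicate B. Libraries were left out in edgeR fits alone.

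The lowest of these edgeR calls, III from 1069801 to 1070100, had 211, 383 and 399 normalized counts in Δprw1 against 1700 and 1347 in clr6-1 (log2 fold change -2.20, SE 0.57, adjusted p = 0.00123 by edgeR). The noncoding RNAs with most called windows there were SPNCRNA.7184, SPNCRNA.7185 and SPNCRNA.7235, each with 1 of 2, at medians of -2.07, -2.03 and -1.86. Relative to dg and dh of the same library, the outer flanks were at -4.68 ± 0.60 (log2, SD, n = 3) for the Δprw1 libraries and -4.85 ± 0.17 (SD, n = 2) for clr6-1, which overlapped (exact permutation test, p = 0.8). The difference of 0.17 was 0.52 without Δprw1 replicate B and -0.52 for that library alone. Background was not subtracted from this ratio, although the outer flanks of Δprw1 were at 2.29, 4.79 and 3.06 times background. The part of background in the overlap was not tested. The windows inward of the repeats, on the same scale, did not overlap and differed by -0.36 (exact permutation test, p = 0.2), or -0.21 without replicate B. Relative to the tlh genes, the other windows of both tlh arms were at -0.59 ± 0.30 (SD, n = 3) for the Δprw1 libraries and 0.19 ± 0.03 (SD, n = 2) for clr6-1. That difference of -0.79 had p = 0.1 in the exact test, the smallest possible, and was -0.61 without Δprw1 replicate B. Whether the subtelomeric and the pericentromeric ratios differ from each other was not tested.

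Summed over all 715 spreading windows of pericentromeres and subtelomeres, the log2 level was 19.00 ± 0.83 (SD, n = 3) for the Δprw1 libraries and 20.96 ± 0.04 (SD, n = 2) for clr6-1, a difference of -1.96 (2-sided exact permutation test, p = 0.2), or -1.16 when scaled by total counts. These windows include the 28 between repeats, whose levels were near those of dg and dh. They were at 165 and 182 times background in clr6-1 and 28.5, 119 and 40.8 times in Δprw1. Spreading relative to nucleation in the same library was at -1.77, -2.30 and -1.83 for Δprw1 replicates A, B and C and at -1.53 and -1.64 for clr6-1. The libraries did not overlap and the difference was -0.38 (exact permutation test, p = 0.2). Without windows within 1 kb of a border between nucleation and spreading windows, this difference was -0.62 (exact permutation test, p = 0.2). It turned to 0.81 when medians of the windows replaced sums (exact permutation test, p = 0.4). With background subtracted from the sums, a setting added after seeing the data, it was -0.56 (exact permutation test, p = 0.1, the smallest possible).

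The facultative islands stood near background in both mutants, 1.07 to 1.09 times in Δprw1 and 1.10 and 1.13 times in clr6-1, where wild-type was at 11.9 and 7.28 times. The log2 sums were 11.47 ± 0.02 (SD, n = 3) and 11.52 ± 0.03 (SD, n = 2), a difference of -0.05, and wild-type was at 14.58 ± 0.50 (SD, n = 2). The median log2 fold change against wild-type was -3.15 in Δprw1 and -3.05 in clr6-1. The libraries did not overlap (exact permutation test, p = 0.1, the smallest possible), and the order of the genotypes turned, to 0.75, when libraries were scaled by their total counts. At mei4, the forkhead factor of meiosis, the mean was 124, 134 and 126 normalized counts per window in Δprw1, and 130 and 127 in clr6-1, with 2046 and 1245 in wild-type, and the mutants overlapped. At ssm4, which encodes a dynactin subunit, it was 112, 105 and 112 against 119 and 115, with 1405 and 851 in wild-type. At mcp7, a meiotic gene, it was 95.2, 91.9 and 102 against 91.9 and 109, with 1164 and 714 in wild-type. The window with the highest log2 fold change of the table, 0.41 (SE 0.36, adjusted p = 0.363 by edgeR), lay at but1 beside ssm4. Of the 12 fixed genes, 9 had a window and none had a called one, where 10 of all 139 coding genes with a window had one, so the count sets these genes apart from no others. The smaller sites num1, mug8, mug9 and SPAC8C9.04 had medians of 0.03, -0.16, 0.03 and -0.14.

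In the arms, the 13 Tf2 retrotransposons carried 127 windows with a median of -0.43. They were at 1.76, 2.83 and 1.44 times background in Δprw1 and 2.26 and 3.11 times in clr6-1, which overlapped, and none was called (2 lower at an unadjusted p below 0.05, none in DESeq2). These elements are near-identical and every window has a second copy. The only arm calls, 2 of 195 and 0 in DESeq2, lay in mae2 and in SPNCRNA.394. The mae2 window, III from 276601 to 276900 in a gene annotated as malate dehydrogenase, had 133, 268 and 143 normalized counts in Δprw1 against 510 and 534 in clr6-1 (log2 fold change -1.54, SE 0.33, adjusted p = 6.30e-05 by edgeR). The call was lost without Δprw1 replicate A (adjusted p = 0.00965 by edgeR). That window matches a stretch 2.19 kb inward from tlh1, and another beside tlh2, at 94% identity. The pair is shown with the bases that differ in capitals, the copy read on the minus strand.
mae2 window, III:276601-276900: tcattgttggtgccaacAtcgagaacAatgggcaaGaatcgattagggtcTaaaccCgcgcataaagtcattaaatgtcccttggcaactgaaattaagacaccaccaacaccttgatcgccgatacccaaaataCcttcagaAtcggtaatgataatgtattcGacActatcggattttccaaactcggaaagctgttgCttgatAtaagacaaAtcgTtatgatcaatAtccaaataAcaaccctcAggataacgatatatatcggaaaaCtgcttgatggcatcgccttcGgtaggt
copy near tlh1, I:7889-8187: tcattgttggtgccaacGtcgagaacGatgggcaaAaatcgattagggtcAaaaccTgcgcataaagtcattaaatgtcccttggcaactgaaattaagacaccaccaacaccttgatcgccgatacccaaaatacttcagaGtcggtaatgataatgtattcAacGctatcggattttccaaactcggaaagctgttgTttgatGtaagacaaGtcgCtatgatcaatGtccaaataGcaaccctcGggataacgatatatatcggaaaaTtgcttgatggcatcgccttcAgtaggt
There are 17 substitutions and 1 gap in 300 alignment columns. The copies lie within 2.5 kb of the tlh genes, where median levels in clr6-1 were 157 and 159 times background, and the part of misplaced reads in the mae2 counts was not tested. The window of SPNCRNA.394, II from 2198701 to 2199000, has no second copy. It had 198, 497 and 276 normalized counts in Δprw1 against 785 and 919 in clr6-1 (log2 fold change -1.40, SE 0.39, adjusted p = 0.00348 by edgeR), and 365 and 231 in wild-type. Against wild-type the log2 fold change was 1.52 in clr6-1 (adjusted p = 0.00192 by edgeR) and 0.11 in Δprw1 (adjusted p = 0.795 by edgeR). Of the fits that left out a library, the call between the mutants was kept in the one without Δprw1 replicate B and in no other.

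At the ends of chromosome III, next to the ribosomal DNA, the mutants overlapped, at 39.3, 110 and 25.7 times background in Δprw1 and 61.7 and 64.7 times in clr6-1. The wild-type libraries were at 25.5 and 15.3 times. The noncoding RNAs named there by the rule, SPNCRNA.6668, SPNCRNA.7772 and SPNCRNA.6675, had medians of -0.35, -0.34 and -0.32 and no call.

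**Figure D5:**
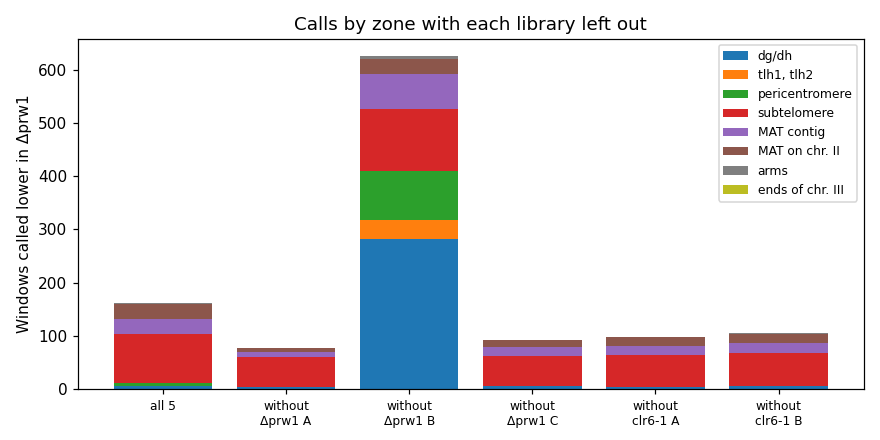
Number of windows called lower in Δprw1 than in clr6-1, stacked by zone, with all 5 libraries and with each left out in turn. Without Δprw1 replicate B the total is 627, of which 282 are dg and dh windows, and without any other library it is 78 to 105.

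Set beside wild-type in the same fit, which both contrasts share, 725 windows (48.3%) were lower in Δprw1 and 546 (36.4%) in clr6-1. Over the subtelomeres outside the tlh genes these were 342 and 264 of 391, over the MAT contig 27 and 3 of 65, and over the islands 21 and 21 of 25. Across the genome in 5kb bins, 1 of 2520 bins (0.0397%) was called between the mutants, lower in Δprw1, and none higher. Of the 168 bins that hold windows, 0 were called, so the window calls were not met at this resolution. Their median log2 fold change was -0.35, and 42 had an unadjusted p below 0.05 by edgeR.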

How the data were processed

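H3K9me2 ChIP-seq counts were deposited by the authors as fragment counts in 300bp windows and in 5kb bins, not normalized, for 13 libraries. The authors trimmed reads (Trimmomatic 0.39), aligned them (Bowtie2 2.4.2, to a build based on ASM294v2 with an added mating type contig), removed duplicates (Picard 2.25.2), kept proper pairs, blanked the regions within 1.5 kb of edited genes and retained 1500 windows above a background threshold. One wild-type and one clr6-1 library were removed by them as outliers and were not analysed here. Reads with several matches were kept, which spreads signal over copies.

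Size factors were the median of ratios over the 5kb bins. Counts of all 13 libraries were fitted with genotype as the only term in edgeR 4.0.16 (R 4.3.3). The SE given with a log2 fold change is its absolute value divided by the square root of the test's F statistic. A window was called when its log2 fold change exceeded 1 in size and its p, adjusted after Benjamini-Hochberg over all windows, was under 0.005. DESeq2 1.42.0 was an alternative, and the fit was tested on simulated data. Levels per library were compared by 2-sided exact permutation tests (10 splits). Copies were found with BLAST 2.17.0 in RefSeq ASM294v3. dg and dh were windows at least 50% covered by stretches of 300 bases or more with 90% identity to the pericentromeres of both other chromosomes. Named windows were the lowest and highest called of each zone, and named genes up to 3 of each zone with most called windows, plus a fixed list of island and tlh genes, of which mcp5, mug45 and mbx2 had no window. Members and lists were chosen with earlier results of these data known. The study calls its replicates biological, and where they were not separate cultures p-values measure only the spread between these samples. Scaling, thresholds, left-out libraries and a replicate block were varied.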

Additional observations from a re-analysis of the deposited data

How the results depend on the processing

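Against 161 windows lower in Δprw1, the count was 106 with TMM size factors on the windows, 331 at an adjusted p below 0.05 and 290 in DESeq2 on the 5 libraries alone, which was chosen after seeing the data. It ran from 78 to 627 when a library was left out, highest without Δprw1 replicate B. Against 0 higher, it was 163 with TMM size factors on the windows and 1 with total counts. The spreading difference moved to -0.75 with medians. Spreading relative to nucleation reversed to 0.81 with medians and was -0.56 after background subtraction. It was -0.62 without windows within 1 kb of a border between nucleation and spreading windows. Total counts gave -0.78 for nucleation and -1.16 for spreading. The island difference reversed to 0.75 with total counts and moved to -0.33 after background subtraction, also added after seeing the data. The cause was not tested. Leaving out a library gave -2.20 to -1.13 for nucleation, -2.42 to -1.62 for spreading, -0.48 to -0.22 for their ratio and -0.07 to -0.03 for the islands.

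With a replicate block the count of lower windows was 253, with all 161 among them. The level differences with the block were -1.38, -1.84, -0.45 and -0.05. These equal the values without Δprw1 replicate C, which has no clr6-1 library of its letter, so they are no separate check. The libraries share only the letters A and B, whose deviations correlated at 0.10 and 0.29, and no label ties them to a batch. Of the 161 calls, 109 lie in copied sequence, as do 1114 of all 1500 windows (74.3%). Another 29 calls are windows of the MAT contig, which was not searched for copies. With 3 against 2 libraries, no permutation p below 0.1 is possible.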

Other observations

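The single 5kb bin called between the mutants, I from 2935001 to 2940000, holds none of the 1500 windows. It had 208, 377 and 149 normalized counts in Δprw1 and 957 and 1364 in clr6-1 (log2 fold change -2.35, SE 0.26, adjusted p = 0.00029 by edgeR), so the libraries did not overlap. All 5 libraries lay below the median bin, at 0.119, 0.215 and 0.0849 times in Δprw1 and 0.545 and 0.777 times in clr6-1. The input libraries were not used here, so whether the bin is enriched for H3K9me2 in either mutant was not tested.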
